A study of Mus musculus with 15 samples.

Results

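Cytochrome c oxidase is the last enzyme of the mitochondrial respiratory chain, and its subunits and the factors that assemble it were followed in the brains of mice fed the copper chelator cuprizone. The genes were taken by symbol from the 3 deposited comparison tables (Cox followed by a digit, mt-Co1 to mt-Co3, Coa1 to Coa8, and Sco1, Sco2, Surf1, Lrpprc, Pet100, Pet117, Taco1 and Cmc1, without pseudogenes), which gave 43 of 21293 genes. RNA came from mixed corpus callosum and neocortex of 15 wild-type mice, 5 in each group. The siponimod mice received cuprizone at 0.25% (w/w) for 3 weeks together with siponimod, a modulator of sphingosine 1-phosphate receptors, at 3.125 mg/kg. The vehicle mice received the same cuprizone feeding with vehicle, and the control mice had standard chow and no treatment, with no vehicle named for them. An effect of the vehicle therefore cannot be told apart from one of cuprizone. The sources used here give neither age, sex nor strain. All groups were wild type, and the tissue pools many cell types, so fewer cells of a type and less RNA per cell cannot be told apart.

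The enzyme passes electrons from cytochrome c to oxygen and pumps protons. Its catalytic core is made of subunits encoded by mitochondrial DNA, which hold the haem A and copper centres, and a shell of nuclear-encoded subunits surrounds that core. Copper reaches the core through a relay of small proteins of the intermembrane space (COX17, then SCO1, SCO2 and COX11), haem A is made by COX10 and COX15, and further factors hold the core subunits during assembly. Because the enzyme needs copper, its activity has long been studied in cuprizone-fed mice. The values here are transcript levels, not enzyme activity or protein.

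Levels are TPM, a transcript level scaled for transcript length and to a fixed total per library. Of the 43 genes, 41 had a TPM in all 15 mice, and all 41 passed the filter on low values (above 0.5 TPM in at least 5 mice). Differences between groups are log2 differences of TPM + 0.5 from limma, relative to the median gene of the comparison, and a gene counts as called at an adjusted p under 0.05 over the 17714 genes tested. The p-values, and so the calls, test the difference before that shift by the median gene. The library of vehicle mouse 1 stood apart. The share of the short neuronal RNA Bc1 there was 35.1%, and elsewhere 5.996% to 10.8%. Its median gene had 4.48 TPM, against 9.64 to 10.6 TPM for the remaining 14. The median gene differed between vehicle and control mice by -0.21 log2 with that mouse and by -0.030 log2 without it, and every result is therefore given without vehicle mouse 1 as well. Markers of mature oligodendrocytes fell in both cuprizone groups (8 of 8 called in each, with or without vehicle mouse 1). Their summed level was 306 to 596 TPM in siponimod mice, 260 to 565 TPM in vehicle mice 2 to 5 (259.9 the lowest) and 1594 to 2486 TPM in control mice. Neuron markers summed to 3812 to 4238, 3633 to 4069 and 4076 to 4156 TPM in siponimod mice, vehicle mice 2 to 5 and control mice. In the same order, microglial markers summed to 329.8 to 519.5, 361 to 619 and 280.1 to 320.2 TPM, and astrocyte markers to 942 to 1425, 1083 to 1532 and 776 to 910.3 TPM. Erythrocyte markers summed to 102 to 417 TPM in siponimod mice, 166 to 473 TPM in vehicle mice 2 to 5 and 15.8 to 143 TPM in control mice, with 0 of 5 called.

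The oxidase genes were sensitive to vehicle mouse 1. The median transcript length of the 41 genes was 778 bases, against 2458 bases for all genes tested, and 23 of 41 lay in the shortest decile of tested genes (up to 869 bases). In vehicle mouse 1, 16 of the 41 genes were the highest of all 15 mice and 11 were the lowest. The highest set held 9 of the 10 constitutive nuclear subunits. The lowest set held Cox8a, mt-Co1, Lrpprc and Cox15. The nuclear subunits summed to 8849 TPM in that mouse, against 5998 to 6703 TPM in the other 14. The 3 subunits encoded by mitochondrial DNA summed to 4.08% of its TPM, against 4.53% to 5.59%. Set against the mean of vehicle mice 2 to 5, its log2 level ran from -1.83 for Cox15 to 1.08 for Cox7a1. Cox15 has a median transcript length of 4798 bases and Cox7a1 one of 439 bases. This length did not order every gene, since Cox17 (2067 bases) lay at 1.05 and Cox8a (550 bases) at -0.296. It is a median over the annotated transcripts of a gene, and which of them were expressed was not examined. With this mouse the median of the 41 genes was 0.13 log2 in vehicle against control mice, against -0.033 without it. In siponimod against vehicle mice it was -0.19 with this mouse and 0.019 without it.

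**Figure D1:**
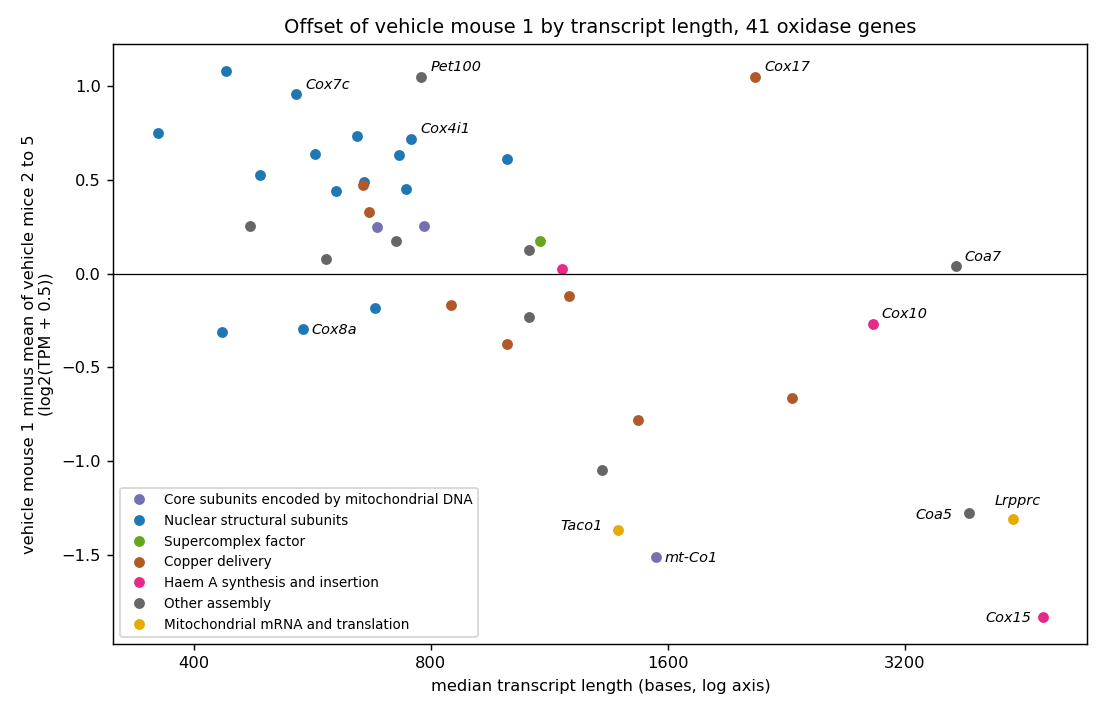
Each point is 1 of the 41 genes, with the median length of its transcripts (bases, log axis) on the x axis and the log2(TPM + 0.5) of vehicle mouse 1 minus the mean of vehicle mice 2 to 5 on the y axis, coloured by role. Offsets run from -1.83 (Cox15) to 1.08 (Cox7a1), most short transcripts lie above 0, and Cox17, with a median annotated length of 2067 bases, lies high.

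In vehicle against control mice, the comparison that shows the tissue after 3 weeks of cuprizone, 1 of the 41 genes changed once vehicle mouse 1 was left out. It was Pet100, which fell. The background was 3.68% of all genes called (652 of 17714, and 2.08% called lower), so a count of 1 in 41 lies near it and says nothing particular about these genes. The median difference of the 41 genes was -0.033, with 11 genes above 0 and 30 below. With all 15 mice 0 of 41 were called, against a background of 1.24%, and 0 of the 41 had an unadjusted p under 0.05, against 9.94% of all genes. Without vehicle mouse 1, 6 of them did, against 15.7% of all genes. The unadjusted p-values test the difference before the shift by the median gene, which lay at -0.21 log2 with all mice. The count of 0 with all mice therefore does not show that these genes were stable. The size of the differences was small, at a median absolute log2 difference of 0.062 for these genes and 0.084 for all genes tested. These sets were not matched for level, so the values do not show that the oxidase genes changed less than others.

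In siponimod against control mice 0 of the 41 genes were called, with or without vehicle mouse 1, against backgrounds of 2.77% without it and 0.745% with all mice. The count at an unadjusted p under 0.05 was 2 without that mouse, against 13.3% of all genes, and 1 with all mice, against 4.67%. The median difference was -0.027, with 15 genes above 0 and 26 below. Vehicle mouse 1 is in neither of these groups, so the estimates were the same with and without it. Leaving it out changed only the spread, which the model estimates over all 3 groups. The median standard error of the 41 genes was 0.123 with that mouse and 0.071 without it. Siponimod and vehicle mice share the cuprizone feeding and differ in siponimod. Between these groups 0 of the 41 genes were called, and 0% of all genes were called either way. The count at an unadjusted p under 0.05 was 5 without vehicle mouse 1 and 1 with all mice, against 1501 and 874 of all 17714 genes. The median was 0.019 without vehicle mouse 1, with 27 genes above 0 and 14 below. The comparisons share groups, so their values are not independent of each other.

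**Figure D2:**
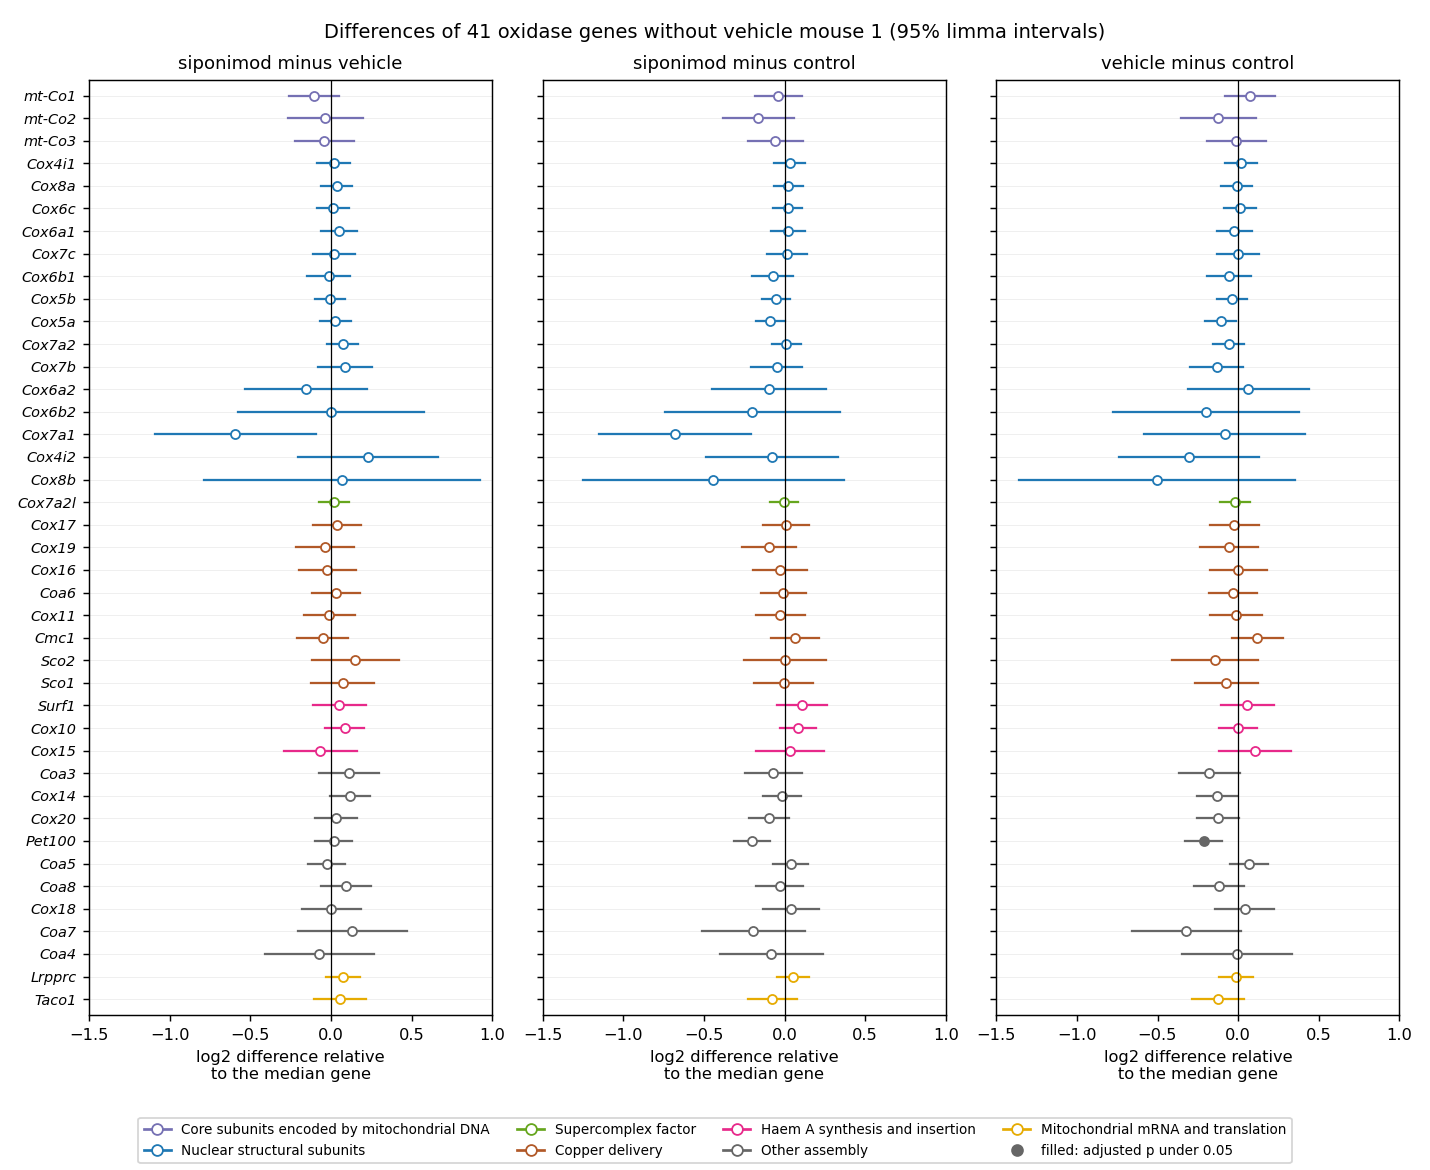
Log2 differences relative to the median gene (x axis) for 41 genes (rows, grouped by role and ordered by level within a role) without vehicle mouse 1, in siponimod minus vehicle, siponimod minus control and vehicle minus control mice. Points are estimates, bars are 95% limma intervals without adjustment for the number of genes, and the 1 filled point marks the call, Pet100 at -0.21 in vehicle minus control mice. The rows with wide bars are Cox6a2, Cox6b2, Cox7a1, Cox4i2 and Cox8b, the isoforms with low TPM, and to a lesser degree Coa7 and Coa4.

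The core subunits encoded by mitochondrial DNA were by far the most abundant transcripts of the set. mt-Co1 encodes the subunit that holds haem A and the copper of the oxygen site. It had 23454, 23659.8, 21332, 23482 and 20819.6 TPM in siponimod mice, 8328 TPM in vehicle mouse 1, 24032, 25257, 23178 and 22299 TPM in vehicle mice 2 to 5, and 21748, 24152, 22223, 23933 and 22963 TPM in control mice. The 3 groups overlapped once vehicle mouse 1, the lowest of all, was set aside. mt-Co2 carries the copper pair that takes electrons from cytochrome c. It had 18632, 19082, 16711, 16231 and 14983 TPM in siponimod mice, 20283 TPM in vehicle mouse 1, 19592, 20024, 15058 and 14337 TPM in the other vehicle mice, and 18937, 20989, 18282, 19364 and 17501 TPM in control mice. In both cuprizone groups some mice lay within the control range and others below its lowest value. mt-Co3, the third core subunit, had 11457, 9570.0, 9857, 10718 and 9497 TPM in siponimod mice, 12217 TPM in vehicle mouse 1, 11828, 10418, 9967 and 8952 TPM in the other vehicle mice, and 9386, 10719, 10576, 10863 and 11247 TPM in control mice. The groups overlapped here as well. The differences of the 3 genes without vehicle mouse 1 ran from -0.11 to -0.035 in siponimod against vehicle mice, from -0.16 to -0.038 in siponimod against control mice and from -0.12 to 0.073 in vehicle against control mice. Their intervals reached from 1.30-fold lower to 1.17-fold higher over the comparisons with control mice, and 0 of 3 were called in limma with or without vehicle mouse 1.

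The 10 nuclear subunits that are made in most tissues came next, with means over the 14 other mice between 226 TPM for Cox7b and 1187 TPM for Cox4i1. Cox4i1 encodes the regulatory subunit IV. It had 1236, 1197, 1156, 1199 and 1265 TPM in siponimod mice, 1924 TPM in vehicle mouse 1, 1134, 1103, 1193 and 1245 TPM in vehicle mice 2 to 5, and 1248, 1106, 1158, 1158 and 1222 TPM in control mice. Its groups covered the same range apart from vehicle mouse 1. The small membrane subunit gene Cox8a had 1073, 1009, 1088, 1021 and 1068 TPM in siponimod mice, 816 TPM in vehicle mouse 1, 1015, 967, 1013 and 1013 TPM in the other vehicle mice, and 1066, 938, 1019, 1035 and 1090.4 TPM in control mice. It was the only constitutive nuclear subunit with vehicle mouse 1 below the other mice. Coefficients of variation over the 14 mice were 4.21% (Cox6c) to 10.1% (Cox7b).

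For these 10 genes the intervals bound how far the groups can differ. In vehicle against control mice the estimates ran from -0.13 to 0.018, and the widest interval bounds were 1.23-fold lower and 1.10-fold higher. In siponimod against control mice they ran from -0.087 to 0.031, with bounds of 1.15-fold lower and 1.10-fold higher. In siponimod against vehicle mice they ran from -0.015 to 0.089, with bounds of 1.11-fold lower and 1.19-fold higher. These bounds are for single genes and leave out vehicle mouse 1. They are not adjusted for the number of genes and take the median gene as exact. With all mice the estimates in vehicle against control mice were all positive (0.11 to 0.37, widest bounds -0.097 and 0.70). In siponimod against vehicle mice they were all negative (-0.35 to -0.082, widest bounds -0.68 and 0.075). The calls test the differences before the shift, and 0 of 10 were called in each. Some intervals of the shifted estimates left out 0, as for Cox4i1 in vehicle against control mice (0.087 to 0.60, against 0.13 before the shift). Others held 0, as for Cox8a there (-0.043 to 0.27).

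Cox5a, which encodes subunit Va on the matrix side, was the constitutive subunit for which vehicle mice 2 to 5 and control mice did not overlap. It had 362, 385, 402, 387 and 389 TPM in siponimod mice, 613 TPM in vehicle mouse 1, 353, 370.5, 376 and 377 TPM in vehicle mice 2 to 5, and 415, 379, 387, 430.0 and 424 TPM in control mice. The highest of vehicle mice 2 to 5 lay just below the lowest control mouse, while siponimod mice overlapped both. The difference in vehicle against control mice was -0.11 (interval -0.20 to -0.013). Before the shift by the median gene it was -0.14, which did not pass the adjustment (adjusted p = 0.111 in limma). With all 15 mice the difference was 0.22, and 0.007 before the shift. Without vehicle mouse 1, 2 of the 41 genes (Cox5a and Pet100) had groups that did not overlap in this comparison, both lower, against 4.6% of all genes lower and 7.6% in either direction, a count near that background. With all mice 0 of 41 did, against 5.02%. Cox5a was named after its values were seen.

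**Figure D3:**
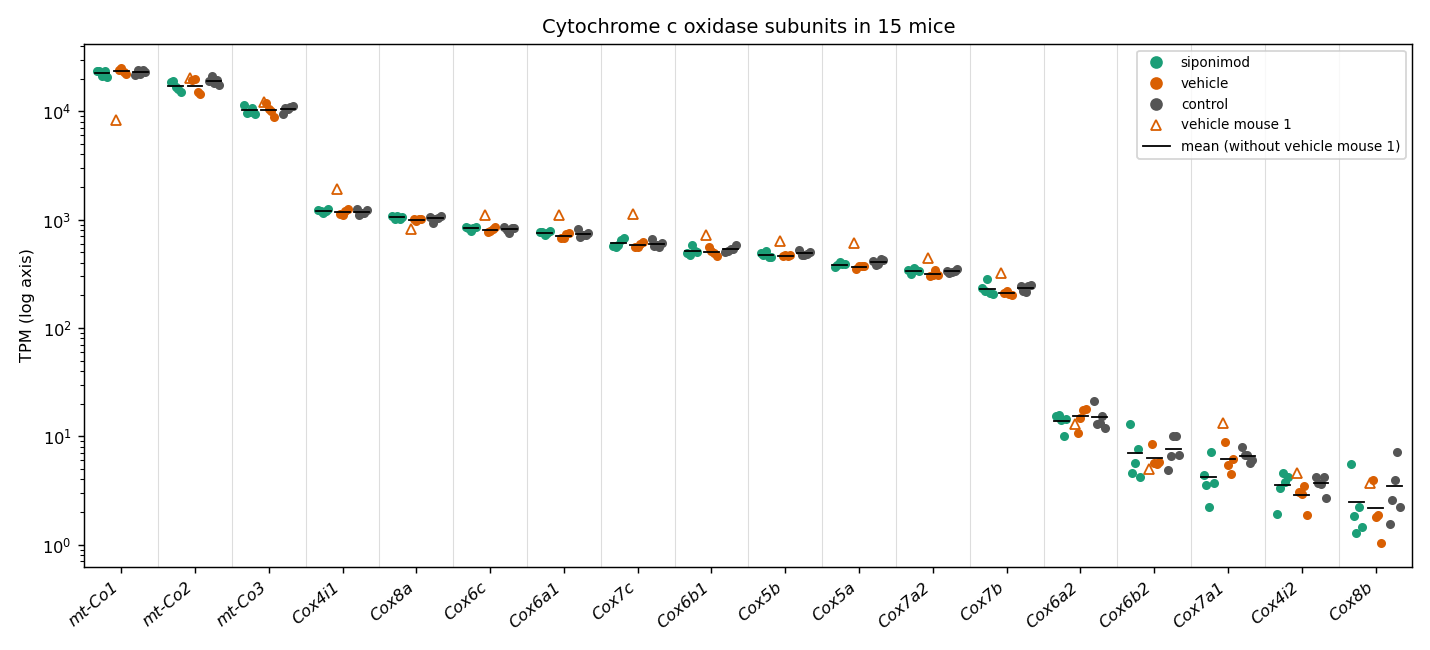
TPM (log axis) of 18 subunit genes, ordered by level, in siponimod (left), vehicle (middle) and control (right) mice. Points are mice, open triangles are vehicle mouse 1, and lines are means without that mouse. The constitutive nuclear subunits span 199.5 to 1265 TPM in the 14 other mice, the isoforms on the right lie between 1.03 and 21.2 TPM, and vehicle mouse 1 lies above the rest for most constitutive subunits and far below them for mt-Co1.

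Several subunits have isoforms restricted to certain tissues, and in this tissue their transcripts were a few percent or less of each pair. Cox6a2 and Cox7a1 are the isoforms of heart and skeletal muscle, Cox8b belongs to the same tissues in rodents, Cox6b2 is made in testis, and Cox4i2 is a lung isoform that is also found in pericytes. Cox6a2 made up 1.80% ± 0.28 of the Cox6a1 and Cox6a2 sum in siponimod mice (n = 5), 2.08% ± 0.37 in vehicle mice 2 to 5 (n = 4) and 1.96% ± 0.37 in control mice (SD, n = 5). Cox4i2 made up 0.296% ± 0.091, 0.245% ± 0.063 and 0.313% ± 0.054 of its pair in the same groups. All 5 shares overlapped between the groups. In single mice Cox6a2 had 15.2, 15.8, 14.05, 9.96 and 14.4 TPM with siponimod, 13.1 TPM in vehicle mouse 1, 10.7, 14.7, 17.6 and 17.9 TPM in the other vehicle mice, and 21.2, 12.9, 13.2, 15.3 and 11.9 TPM in control mice. Cox6a2 is also known from parvalbumin interneurons, and markers of those cells summed to 294 to 333 TPM in siponimod mice, 315 to 349 TPM in vehicle mice 2 to 5 and 279 to 382 TPM in control mice. Its partner Cox6a1 had 762, 762, 723, 745 and 783 TPM in siponimod mice, 1110.2 TPM in vehicle mouse 1, 682, 672, 738 and 759 TPM in the other vehicle mice, and 819, 686, 720.1, 719 and 754 TPM in control mice. Neither gene separated the groups.

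Cox7a1 showed the largest estimate of the set. It had 4.37, 3.52, 2.22, 7.20 and 3.69 TPM in siponimod mice, 13.3 TPM in vehicle mouse 1, 8.85, 5.40, 4.47 and 6.15 TPM in vehicle mice 2 to 5, and 8.01, 6.72, 6.68, 5.64 and 6.02 TPM in control mice. Of the siponimod mice, 4 of 5 lay below all other mice and mouse 4 lay within the control range. Its difference without vehicle mouse 1 was -0.68 against control mice (interval -1.15 to -0.21, adjusted p = 0.152 in limma) and -0.59 against vehicle mice (interval -1.09 to -0.095, adjusted p = 0.565). Neither passed the adjustment. With all mice the same differences were -0.68 and -0.98 (-0.67 and -0.77 before the shift by the median gene), with adjusted p of 0.832 and 0.496 in limma. The one against control mice passed only when siponimod mouse 4 was left out together with vehicle mouse 1 (adjusted p = 0.0202 in limma). With vehicle mouse 1 and another mouse left out, its adjusted p ranged up to 0.281. Over all fits, which include those that keep vehicle mouse 1, it ranged up to 0.99999. The difference of Cox7a1 in vehicle against control mice was -0.083 without vehicle mouse 1. The constitutive partner Cox7a2 had 341, 314, 358, 341 and 339 TPM in siponimod mice, 440.4 TPM in vehicle mouse 1, 301, 308, 339.7 and 306 TPM in the other vehicle mice, and 334, 319.5, 331, 336 and 347 TPM in control mice, with overlap throughout. Muscle markers, of which 5 of 8 had a TPM in all mice, summed to 9.98 to 12.3 TPM in siponimod mice, 8.18 to 11.2 TPM in vehicle mice 2 to 5 and 12.1 to 14.5 TPM in control mice, nearly all of it Acta1. Their part in the values of Cox7a1 was not tested.

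The other isoforms had low TPM and varied widely between mice. Cox4i2 had 1.91, 3.30, 4.63, 3.82 and 4.24 TPM in siponimod mice, 4.61 TPM in vehicle mouse 1, 3.09, 2.95, 3.47 and 1.89 TPM in the other vehicle mice, and 4.19, 3.74, 3.63, 4.18 and 2.71 TPM in control mice. Its differences without vehicle mouse 1 were 0.23 in siponimod against vehicle mice and -0.30 in vehicle against control mice, with adjusted p of 0.767 and 0.473 in limma. Mural cell markers, the cells in which Cox4i2 is known, summed to 166 to 183 TPM in siponimod mice, 157 to 186 TPM in vehicle mice 2 to 5 and 161 to 177 TPM in control mice, and 0 of 10 were called. Cox6b2 had 12.9, 4.61, 5.64, 7.55 and 4.23 TPM in siponimod mice, 4.94 TPM in vehicle mouse 1, 8.42, 5.68, 5.53 and 5.77 TPM in the other vehicle mice, and 4.92, 6.58, 10.1, 10.2 and 6.66 TPM in control mice. Its partner Cox6b1 had 488, 472, 579.8, 516 and 504 TPM in siponimod mice, 726 TPM in vehicle mouse 1, 555, 512, 493 and 459 TPM in the other vehicle mice, and 507, 516, 538, 531 and 582 TPM in control mice. Both overlapped between groups. Cox8b had 5.57, 1.83, 1.28, 2.22 and 1.44 TPM in siponimod mice, 3.67 TPM in vehicle mouse 1, 3.97, 1.81, 1.89 and 1.03 TPM in the other vehicle mice, and 1.55, 2.596, 3.97, 7.20 and 2.22 TPM in control mice. It had the widest intervals of the set, -1.36 to 0.35 around -0.50 in vehicle against control mice and -1.25 to 0.37 around -0.44 in siponimod against control mice.

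The genes of copper delivery to the enzyme did not pass the test in any comparison (0 of 8 called, with or without vehicle mouse 1). Without that mouse, 3.68% of all genes were called in vehicle against control mice and 2.77% in siponimod against control mice. In siponimod against vehicle mice it was 0%, and the shares were no higher with all mice. A count of 0 in so short a list says nothing particular about this step, or about the other roles. Cox17, the chaperone that hands copper to the SCO proteins and to COX11, had 189, 182, 202, 211 and 215 TPM in siponimod mice, 392 TPM in vehicle mouse 1, 176, 177, 206 and 199.9 TPM in vehicle mice 2 to 5, and 227, 189.6, 199.8, 181 and 189 TPM in control mice. Apart from vehicle mouse 1 the groups covered nearly the same range, and the difference in vehicle against control mice was -0.024 (interval -0.17 to 0.13). Sco1, which passes copper to the mt-Co2 product, had 5.91, 8.04, 6.53, 6.55 and 6.65 TPM in siponimod mice, 3.73 TPM in vehicle mouse 1, 6.11, 6.41, 5.73 and 6.53 TPM in the other vehicle mice, and 7.005, 5.82, 7.03, 6.95 and 6.72 TPM in control mice. Sco2, its relative on the same pathway, had 20.6, 24.6, 18.4, 22.0 and 22.9 TPM in siponimod mice, 17.3 TPM in vehicle mouse 1, 15.2, 19.9, 21.03 and 20.1 TPM in the other vehicle mice, and 25.2, 20.1, 20.6, 25.9 and 16.6 TPM in control mice. Both overlapped between all groups. Cox11, needed for the copper of the oxygen site, had 20.9, 25.7, 24.4, 22.0 and 21.5 TPM in siponimod mice, 17.2 TPM in vehicle mouse 1, 21.04, 20.9, 23.9 and 24.1 TPM in the other vehicle mice, and 23.9, 24.0, 23.6, 20.3 and 24.2 TPM in control mice. Its groups overlapped, with vehicle mouse 1 the lowest. Over the 8 genes, which also include Cox16, Cox19, Coa6 and Cmc1, the differences ran from -0.051 to 0.15 in siponimod against vehicle mice, from -0.097 to 0.064 in siponimod against control mice and from -0.14 to 0.12 in vehicle against control mice.

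Haem A synthesis and insertion gave 0 of 3 calls in each comparison, against the same shares of all genes. Surf1, which takes part in building the core around haem A, had 95.2, 96.0, 85.2, 92.5 and 99.5 TPM in siponimod mice, 89.6 TPM in vehicle mouse 1, 85.6, 83.9, 85.9 and 97.4 TPM in the other vehicle mice, and 94.3, 72.9, 81.0, 98.7 and 87.5 TPM in control mice. The groups overlapped. Cox10, the haem farnesyltransferase of the first step, had 15.9, 16.1, 14.8, 15.8 and 15.4 TPM in siponimod mice, 11.8 TPM in vehicle mouse 1, 13.2, 14.7, 14.7 and 14.6 TPM in the other vehicle mice, and 14.5, 15.5, 14.6, 14.3 and 14.2 TPM in control mice. The lowest siponimod mouse lay just above the highest vehicle mouse. Its difference in siponimod against vehicle mice was 0.086 without vehicle mouse 1 and -0.037 with it, since the median gene moved. Before the shift by the median gene the differences were 0.12 and 0.17. These are the values tested, and neither passed the adjustment (adjusted p = 0.589 and 0.496 in limma). Without vehicle mouse 1, Cox10 and Cox14 were the 2 of 41 genes whose groups did not overlap in siponimod against vehicle mice, both higher, against 2.37% of all genes higher and 2.78% in either direction. With all mice it was Cox10 alone, against 2.04% higher and 2.07% in either direction. These were named after their values were seen. Cox15, which finishes haem A, had differences between -0.066 and 0.11 without vehicle mouse 1.

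Pet100 was the single called gene. Its product, known from human cells, helps assemble the enzyme at the inner membrane. The gene (ENSMUSG00000087687) lies on chromosome 8 from 3621548 to 3625848 on the plus strand of GRCm38. It had 43.8, 39.9, 42.9, 37.9 and 44.2 TPM in siponimod mice, 83.7 TPM in vehicle mouse 1, 37.8, 40.98, 42.1 and 39.98 TPM in vehicle mice 2 to 5, and 49.7, 45.9, 49.7, 45.4 and 48.0 TPM in control mice. All siponimod mice and vehicle mice 2 to 5 lay below all control mice, while vehicle mouse 1 lay far above them. The means were 41.7 ± 2.73 TPM in siponimod mice (n = 5), 40.2 ± 1.84 TPM in vehicle mice 2 to 5 (n = 4) and 47.7 ± 2.05 TPM in control mice (SD, n = 5).

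Without vehicle mouse 1, Pet100 fell by 0.21 on the log2 scale in vehicle against control mice (interval -0.33 to -0.10, adjusted p = 0.0182 in limma). With that mouse the same difference was 0.18 relative to the median gene and -0.034 without that shift, which is the value its adjusted p of 0.899 tests. With vehicle mouse 1 and another mouse left out in turn, it was called in 12 of 14 fits, and it was lost without vehicle mouse 2 (-0.197, adjusted p = 0.0712) and without vehicle mouse 5 (-0.199, adjusted p = 0.0544). The difference itself ran from -0.24 to -0.19 over the 14 fits. In siponimod against control mice the difference was -0.20 (interval -0.31 to -0.09), and it was not called either without vehicle mouse 1 (adjusted p = 0.0627) or with all mice. It was the 1 gene of 41 whose groups did not overlap in that comparison, against 4.83% of all genes (2.09% lower). In siponimod against vehicle mice the difference of Pet100 was 0.017 without vehicle mouse 1 and -0.37 with it. Before the shift by the median gene these were 0.052 and -0.16, and neither was called (adjusted p = 0.846 and 0.562 in limma). Oligodendrocyte markers fell in the same mice, and the sums of microglial, astrocyte and erythrocyte markers were higher in vehicle mice 2 to 5 than in control mice. The sums of neuron markers (3633 to 4069 TPM, against 4076 to 4156 TPM in control mice) and of muscle markers were lower there. The part of these markers in the values of Pet100 was not tested. Pet100 overlaps Pcp2 on the opposite strand over 2175 bases. Pcp2 had 0.115 to 1.15 TPM in the 14 mice.

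The promoter of Pet100 is shown with those of Cox5a, Cox6a1 and Cox7a1, because Pet100 carried the call, Cox5a did not overlap between vehicle mice 2 to 5 and control mice, Cox6a1 held the NRF1 motif and Cox7a1 had the largest estimate. The sequences are the 200 bases before the start that RefSeq gives, on GRCm38.p6, written 5′ to 3′ on the strand of the gene. Capitals mark motif matches. These are CCGGAAG, the core bound by GABPA and other ETS factors, and the NRF1 motif (GCGCA, any base, then GCGC), searched on both strands. Both factors are known activators of respiratory chain genes.
Pet100 chr8:3621351-3621550 (plus strand): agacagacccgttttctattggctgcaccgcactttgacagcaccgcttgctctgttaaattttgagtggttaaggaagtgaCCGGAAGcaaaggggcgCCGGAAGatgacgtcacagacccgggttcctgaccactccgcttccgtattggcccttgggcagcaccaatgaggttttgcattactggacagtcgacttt
Cox5a chr9:57521032-57521231 (plus strand): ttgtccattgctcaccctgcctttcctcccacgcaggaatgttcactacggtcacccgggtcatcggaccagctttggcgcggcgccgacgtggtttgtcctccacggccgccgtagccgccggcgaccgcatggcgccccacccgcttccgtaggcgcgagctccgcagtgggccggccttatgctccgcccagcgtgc
Cox6a1 chr5:115348959-115349158 (minus strand): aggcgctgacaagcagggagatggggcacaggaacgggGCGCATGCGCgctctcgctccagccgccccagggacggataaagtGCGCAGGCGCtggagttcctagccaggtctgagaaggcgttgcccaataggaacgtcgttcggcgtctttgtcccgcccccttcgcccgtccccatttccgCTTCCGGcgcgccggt
Cox7a1 chr7:30183971-30184170 (plus strand): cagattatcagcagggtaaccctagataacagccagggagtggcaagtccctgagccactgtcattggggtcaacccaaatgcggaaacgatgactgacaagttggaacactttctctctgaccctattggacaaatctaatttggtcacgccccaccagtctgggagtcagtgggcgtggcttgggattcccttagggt

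Pet100 held CCGGAAG at 118 and again at 101 bases before the start. Cox6a1 held it on the other strand at 16 bases before the start, and held the NRF1 motif at 162 and at 117. No match overlapped one of another motif. The printed bases of Cox5a and Cox7a1 held neither. In windows from 250 bases before to 50 after the start, found for 33 of the 43 genes, CCGGAAG was in 14 (42.4%), against 9.93% of 27025 genes and 17.5% of the 12390 tested genes with a window. The NRF1 motif was in 1 of 33 (3.03%, Cox6a1), against 5.19% and 10.1%. AANATGGC, a motif of YY1, was in 4 of 33 (12.1%), against 6.96% and 8.89%. A match is a stretch of letters and not a measured binding site.

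**Figure D4:**
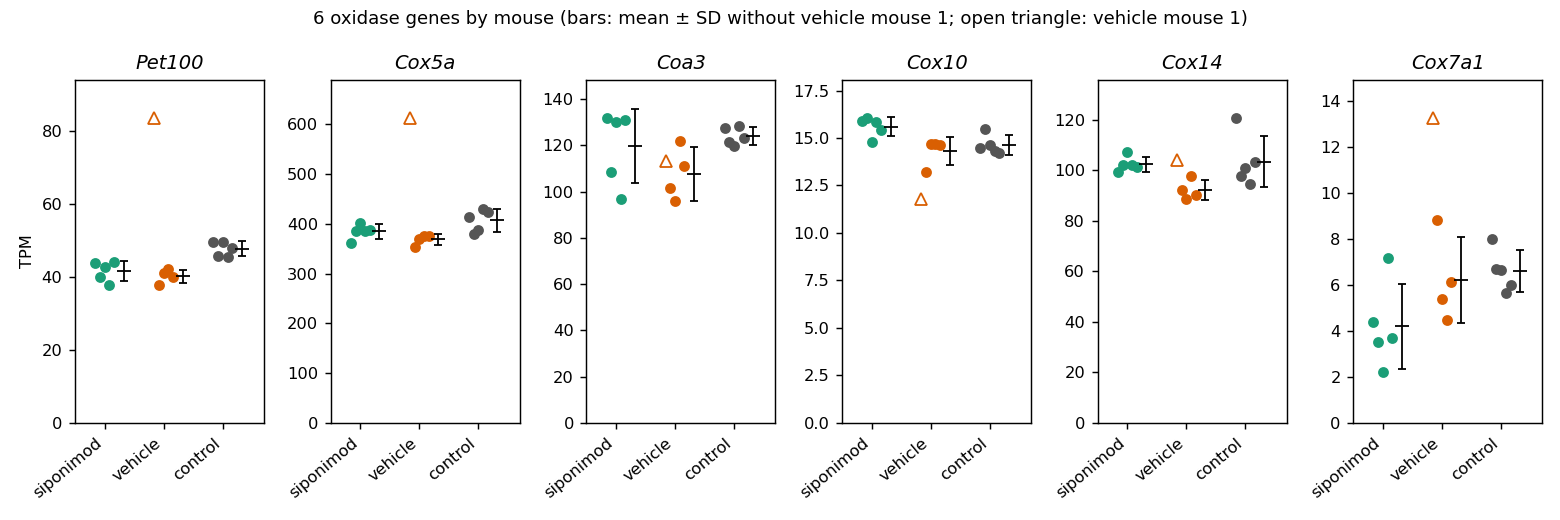
TPM of Pet100, Cox5a, Coa3, Cox10, Cox14 and Cox7a1 in siponimod (left), vehicle (middle) and control (right) mice, on axes that start at 0. Points are mice, open triangles are vehicle mouse 1, and bars are mean ± SD without it. For Pet100 the siponimod mice (37.9 to 44.2 TPM) and vehicle mice 2 to 5 (37.8 to 42.1 TPM) lie below the control mice (45.4 to 49.7 TPM).

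The remaining assembly factors gave 0 calls. Cox14 and Coa3 act together in humans on newly made mt-Co1 protein. Cox14 had 99.3, 102, 107, 102 and 101 TPM in siponimod mice, 104 TPM in vehicle mouse 1, 92.0, 88.5, 97.8 and 90.3 TPM in the other vehicle mice, and 121, 97.7, 101, 94.7 and 103 TPM in control mice. All siponimod mice lay above vehicle mice 2 to 5, and control mice overlapped both. Coa3 had 132, 108, 130, 96.9 and 131 TPM in siponimod mice, 113 TPM in vehicle mouse 1, 102, 95.8, 122 and 111 TPM in the other vehicle mice, and 127, 121, 119.8, 128 and 123 TPM in control mice. Of vehicle mice 2 to 5, 3 lay below all control mice for Coa3, as did 2 siponimod mice. The differences of Cox14 and Coa3 without vehicle mouse 1 in vehicle against control mice were -0.13 and -0.18, with adjusted p of 0.170 and 0.251 in limma. Coa7, a haem-binding factor of the intermembrane space in humans, had 15.4, 15.2, 13.0, 12.7 and 17.3 TPM in siponimod mice, 13.4 TPM in vehicle mouse 1, 15.1, 10.1, 11.8 and 15.7 TPM in the other vehicle mice, and 21.2, 12.7, 15.5, 14.5 and 21.3 TPM in control mice. Control mice 1 and 5 lay above the rest, and its difference in vehicle against control mice was -0.32 (interval -0.66 to 0.017). The 9 genes of this role had a median of -0.12 in vehicle against control mice without vehicle mouse 1 and of 0.083 with all mice.

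Lrpprc binds the messenger RNAs made from mitochondrial DNA, and Taco1 activates the translation of mt-Co1. Lrpprc had 31.2, 31.4, 29.9, 28.4 and 29.4 TPM in siponimod mice, 10.97 TPM in vehicle mouse 1, 26.8, 27.3, 28.5 and 28.9 TPM in the other vehicle mice, and 28.7, 26.9, 29.4, 30.1 and 28.6 TPM in control mice. The groups overlapped apart from vehicle mouse 1, the lowest. Its difference in siponimod against vehicle mice was 0.072 without vehicle mouse 1 (adjusted p = 0.589 in limma). Neither gene was called. Cox7a2l, which ties the enzyme into supercomplexes, had 195.5 to 230.1 TPM in the 14 mice and one of the smallest coefficients of variation of the set (4.25%).

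Of the genes without a TPM in every mouse, Cox7b2 appeared only in the vehicle against control table and Pet117 only in the siponimod against control table. Cox7b2, a testis isoform in humans, had 0.995, 0.182, 0.452, 1.12 and 1.54 TPM in vehicle mice and 0, 0.221, 0.880, 1.23 and 0.919 TPM in control mice. Pet117 had 4.05, 0, 0, 1.36 and 7.15 TPM in siponimod mice and was listed at 0 in all 5 control mice. It lies within Kat14 on the same strand, and no fold is given. Cox5b-ps and Cox7c-ps1 were left out as pseudogenes. Cox5b-ps was listed at 11.1 to 24.2 TPM, against 451 to 519.6 TPM for Cox5b in the 14 mice, so reads may be shared between them. A gene on the opposite strand overlapped 19 of the 43 genes, and one on the same strand overlapped 8. The sources used here do not say whether quantification used strand, and levels of overlapping genes are uncertain. Cox20 (53.0 to 71.4 TPM) and Hnrnpu (259.5 to 326 TPM) are such a pair.

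Genes of nearby pathways are given without vehicle mouse 1, and their single calls are to be read against 3.68% of all genes called in vehicle against control mice (2.08% lower) and 2.77% in siponimod against control mice. Of 14 further oxidase genes outside the symbol rule, which include Ndufa4, whose product is counted as a subunit of the oxidase, and Cycs, which encodes cytochrome c, 0 were called in each comparison. Ndufa4 had 638 ± 19.0 TPM in siponimod mice (n = 5), 613 ± 23.9 TPM in vehicle mice 2 to 5 (n = 4) and 654 ± 38.6 TPM in control mice (SD, n = 5). Of 36 nuclear subunits of complex I, 0 rose and 1 fell in vehicle against control mice (Ndufs5, -0.14, adjusted p = 0.0470 in limma). Of 13 subunits of complexes II and III, 0 rose and 1 fell (Uqcrb, -0.16, adjusted p = 0.0379). The 15 tested subunits of ATP synthase, the 10 other genes of mitochondrial DNA and the 14 genes of copper handling gave 0 calls in every comparison. Of 12 regulators of mitochondrial gene expression, 1 rose in siponimod against control mice. It was Nrf1, the factor of the NRF1 motif, at 13.5 ± 1.10 TPM in siponimod mice and 11.1 ± 0.539 TPM in control mice (SD, n = 5 each; 0.26, adjusted p = 0.0394 in limma). Its difference from vehicle mice 2 to 5, at 10.8 ± 0.478 TPM (n = 4), was not called. With all 15 mice 0 genes of these lists were called in any comparison. Leaving out siponimod mouse 1 as well ended the call of Nrf1 and brought 1 fall among the ATP synthase subunits in vehicle against control mice.

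The authors' deposited table for vehicle against control mice gave Coa3 an adjusted p of 0.00767 at a log2 fold change of -0.229, the 1 gene of this set under 0.05 there, against 6.66% of its listed genes. The authors' deposited table for siponimod against control mice gave mt-Co2 an adjusted p of 0.0140 at -0.211, again the 1 gene under 0.05, against 5.14%. In the authors' deposited table for siponimod against vehicle mice 0 were under 0.05, against 2.05%. Pet100 stood at -0.144 with an adjusted p of 0.344 in the authors' deposited table for vehicle against control mice, and at -0.0794 with 0.805 in that for siponimod against control mice. The authors' deposited table for vehicle against control mice lists all 5 vehicle mice, and in limma with all mice Pet100 was not called either. The calls on Coa3 and mt-Co2 in the authors' deposited tables were not made by limma on TPM, with or without vehicle mouse 1.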

How the data were processed

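The labels' protocols name a lipid tissue RNA kit and a stranded library kit for total RNA with ribosomal RNA removed, while the first line of the files names a 3 prime mRNA analysis, and which holds is unknown. The submitters' processing notes list bcl2fastq, Trim Galore 0.6.6, STAR 2.6.1d, Salmon 1.4.0 and the build mm10, with no roles. Annotation, strand use and the test behind the authors' p-values were not given in the sources used here. Deposited by the authors were 3 tables of 2 groups each, with TPM per mouse, a log2 fold change, its standard error and statistic (a score), p-values and a mean signal over libraries, per the file headers. TPM keep no depth, so counting error cannot be given.

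The tables were joined over the 19261 genes that have a TPM for all 15 mice, and 17714 passed the filter (above 0.5 TPM in at least 5 mice). On log2(TPM + 0.5), limma 3.58.1 (R 4.3.3) was run with 3 groups in 1 model, empirical Bayes with trend (12 residual degrees of freedom, 11 without vehicle mouse 1) and Benjamini-Hochberg adjustment at 0.05. The branch of the design for counts was not used. The p-values test the unshifted difference. Differences and 95% intervals are shifted by the median gene, and the pseudocount shrinks differences of low genes. The fit was also run on simulated data with independent normal noise and no outlying library. That run cannot show how the fit behaves with a library such as that of vehicle mouse 1. Replicates are mice named separately in the labels. Coordinates and transcript lengths are from GENCODE M21 on GRCm38 and promoters from RefSeq. Python 3.11.15, pandas 2.3.3, numpy 2.4.6 and matplotlib 3.10.9 were used. Genes given mouse by mouse are the core subunits, isoform pairs, Cox17, Sco1, Sco2, Cox11, Surf1, Lrpprc, called genes and the 3 largest differences per comparison. Cox5a, Cox10, Cox14 and Coa3 were added after their values were seen. The genes and lists were chosen with earlier results of these data known. Alternatives were other scalings, filters, pseudocounts, a correction for transcript length (lowess span 0.3), a replicate block and mice left out.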

Additional observations from a re-analysis of the deposited data

Results flagged for a closer look

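In 72 sets of 5 mice (1 gene or sum in 1 group), a mouse lay far from the other 4 of its group in 14 sets, where chance gives about 1 in 20 of independent sets. These sets share libraries, and 10 of the 14 were vehicle mouse 1. It was high for Cox17 (392 TPM), Cox4i1 (1924 TPM), Cox6a1 (1110.2 TPM), Cox7a2 (440.4 TPM), Pet100 (83.7 TPM) and the summed nuclear subunits (8849 TPM). It was low for Cox8a (816 TPM), Lrpprc (10.97 TPM), Sco1 (3.73 TPM) and mt-Co1 (8328 TPM). The other sets were Cox8b in siponimod mouse 1 (5.57 TPM, high), Cox6b2 in vehicle mouse 2 (8.42 TPM, high), Cox11 in control mouse 4 (20.3 TPM, low) and Sco1 in control mouse 2 (5.82 TPM, low).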

How the results depend on the processing

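With all mice, 220 genes were called in vehicle against control mice. The number was 549 with a correction for transcript length and 427 with libraries scaled to a common median. It was 768 without vehicle mouse 1 and siponimod mouse 1. In siponimod against control mice 132 genes were called, and 508 with these groups fitted alone, 282 with the length correction, 209 with the common median and 350 without both mice. With vehicle mouse 1 left out, the length correction gave 701 and 552, the common median 672 and 529, and the replicate block 593 and 435. Of the 41 oxidase genes, the call in vehicle against control mice was Pet100 in each of these fits without vehicle mouse 1 (1 gene), and with all mice 0. In siponimod against control mice 1 gene (Pet100, adjusted p = 0.0242 in limma) was called with vehicle mouse 1 left out and the length correction, and Cox7a1 (-0.89) without vehicle mouse 1 and siponimod mouse 4.

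The difference of Pet100 in vehicle against control mice was 0.18 with all mice relative to the median gene (-0.034 without that shift) and turned negative without vehicle mouse 1 and siponimod mouse 1 (-0.21), and, without vehicle mouse 1, under the length correction (-0.19), the common median (-0.21) and the replicate block (-0.19). With single mice, or vehicle mouse 1 and another, left out it ranged from -0.24 to 0.29. In the same fits the calls over all genes ranged from 148 to 768 in vehicle against control, 97 to 606 in siponimod against control and 0 to 2 in siponimod against vehicle mice. The oxidase genes called ranged from 0 to 1, 0 to 1 and 0 to 0. The fits with vehicle mouse 1 and another mouse left out, and those with it left out and another scaling, were chosen after seeing the data.

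The mouse numbers gave no consistent pairing (correlations of same-numbered mice from -0.055 to 0.201), and a partial one was not tested. Vehicle mice 1 and 2 and siponimod mice 2, 3 and 4 were closest to the control mouse of their own number. No siponimod mouse was closest to the vehicle mouse of its number. Other pseudocounts, no filter on low values and Bc1 taken out were run with all mice only. They gave 0 oxidase genes called, as did the main fit with all mice. They were not run without vehicle mouse 1, where Pet100 was called. With all mice the replicate block left 178, 111 and 0 calls. TPM without depth gives no counting error.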
